A study of Mus musculus with 48 samples.

Results

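The growth hormone and insulin-like growth factor (IGF) axis of the liver was described by 10 genes, named by symbol and found in the count tables by Ensembl identifier, of 55416 genes in all. They were the receptor Ghr, the ligand Igf1, the carrier Igfals, the transcription factors Stat5a and Stat5b, the inhibitors Socs2 and Cish, and the binding proteins Igfbp1, Igfbp2 and Igfbp3. Liver RNA came from a pair of mouse lines with a changed LXRα, the oxysterol receptor encoded by Nr1h3: a CRISPR-Cas9 knock-in of the W441R change, which makes the receptor dominant negative (DN), and a knockout (KO). The knock-in line came from a founder crossed to C57BL/6J, and the knockout, once on a mixed background, had been backcrossed. Each line gave wild-type (WT), heterozygous (HET) and homozygous (HOM) mice, 8 livers a group and 48 in all. All were labelled C57Bl/6J and fed a western diet for 8 weeks, which began at about 8 weeks of age in both studies. The alleles were present in every cell of the body, and the studies were done at different sites, so line and site cannot be told apart. The DN mice were male; the sex of the KO mice is not given apart from this, and in all 48 livers the Y-linked Ddx3y lay between 63.2 and 108 CPM (read counts scaled to a common library total) while Xist stayed at or below 0.481 CPM.

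Growth hormone from the pituitary binds its receptor on hepatocytes and activates the kinase JAK2, which phosphorylates STAT5. STAT5 then raises transcription of Igf1 and Igfals, and of Socs2 and Cish, whose products damp the signal. The liver is the main source of circulating IGF-1, most of which travels in a complex with IGFBP3 and the acid-labile subunit made from Igfals, while IGFBP1 and IGFBP2 form smaller complexes and respond to fasting and insulin.

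Reads on genes ranged from 5332897 to 16961379 a liver, with 2 livers, KO:HET animal 3 and KO:HOM animal 17, under 10000000. Nr1h3 averaged 93.5 ± 8.82 CPM in KO:WT, 59.2 ± 5.63 in KO:HET and 27 ± 1.99 in KO:HOM livers (SD, n = 8 each), and reads that remain need not give receptor. The point mutation leaves its transcript in place, so Nr1h3 is no direct check of the DN labels: it averaged 91.7 ± 5.04 in DN:WT (82.0 to 96.8) and 72.7 ± 3.56 in DN:HOM livers (68.3 to 77.3; SD, n = 7 each), and was 71.2 CPM in the liver labelled DN:WT animal 10 and 86.8 CPM in that labelled DN:HOM animal 12. The study's source data for a set of these livers lack those labelled DN:WT animal 10 and DN:HOM animal 12, and levels and tests below are therefore of 46 livers unless all 48 are named. In expression each was like the other label: their summed macrophage markers were 1938 and 110 CPM, inside the ranges of the remaining DN:HOM (1222 to 1980) and DN:WT livers (97.4 to 196). The same holds for Ghr (259 and 636 CPM), so that a gap between DN:HOM and DN:WT ranges below holds for the 46 livers and not for all 48. The fit to all 48 livers is given beside the DN:HOM changes of the 10 genes and of the other genes named. Levels are CPM scaled by TMM (which aligns libraries on the bulk of their genes), and adjusted p-values are those of edgeR (quasi-likelihood F test, Benjamini-Hochberg over all 15711 genes tested), with a threshold of 0.05.

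Marker genes of the liver's cell types differed in level between the groups. The summed level of 10 hepatocyte markers (Alb, Apoa1, Ttr and others) had a median of 79958 CPM in DN:WT and 37311 CPM in DN:HOM livers, with 91690 in the liver labelled DN:HOM animal 12 and 46115 in that labelled DN:WT animal 10. In the knockout the median went from 96302 in KO:WT to 74762 CPM in KO:HOM livers. Over the DN groups the macrophage sum went from 132 to 1595 CPM, the stellate cell sum from 276 to 975 CPM and the cholangiocyte sum from 43.8 to 894 CPM. From KO:WT to KO:HOM livers the macrophage sum went from 129 to 489 CPM and the T cell sum from 1.52 to 10.3 CPM. In bulk liver, fewer cells of a type and less RNA of its markers per cell cannot be told apart. The part of these shifts in the results below was not tested.

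**Figure D1:**
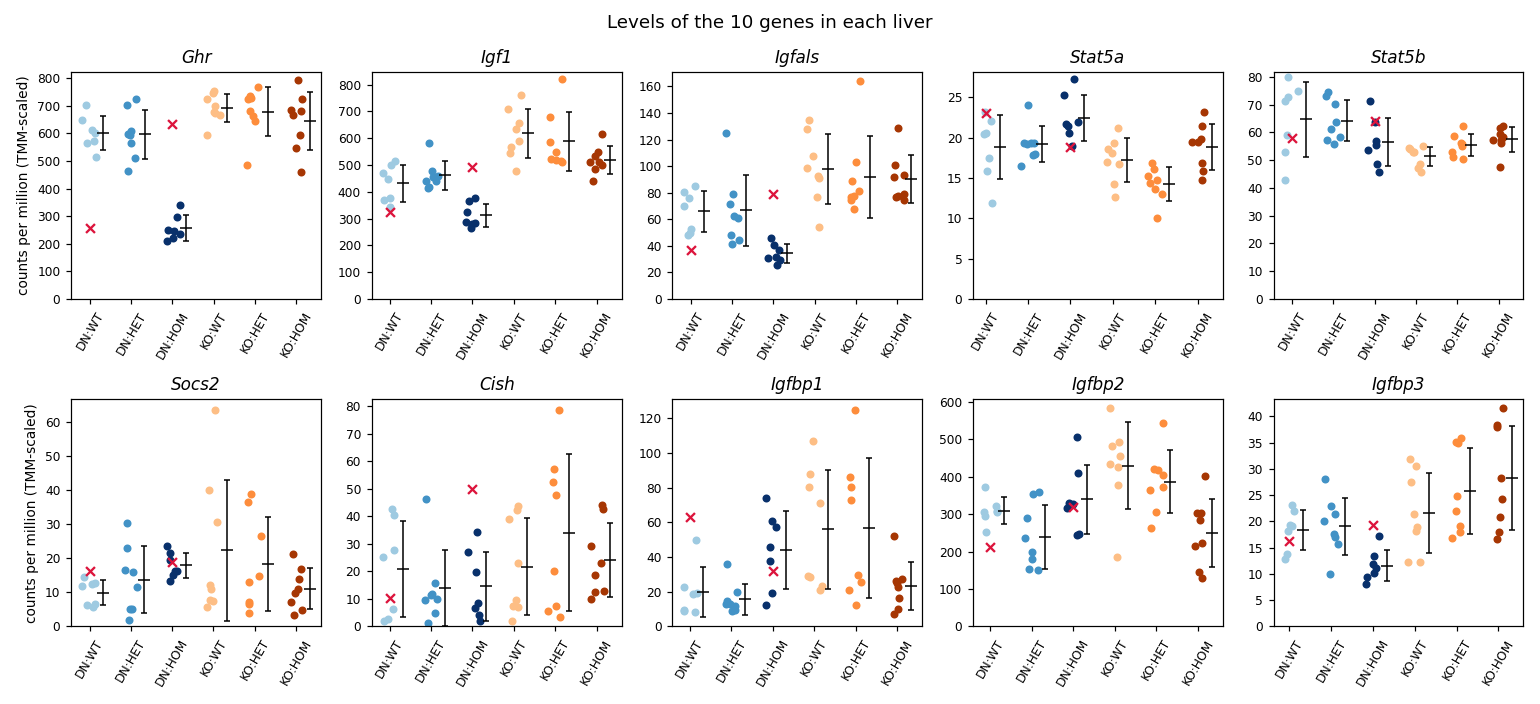
Level of each of the 10 genes (vertical axis, TMM-scaled CPM from 0) in each liver of the 6 groups (horizontal axis). Points are livers, bars the mean and SD without the crosses, and the crosses are the livers labelled DN:WT animal 10 and DN:HOM animal 12, whose Ghr levels were 259 and 636 CPM.

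Of the 10 genes, 6 passed the test in DN:HOM against DN:WT livers, with Stat5a and Igfbp1 higher and Ghr, Igf1, Igfals and Igfbp3 lower. The background was high, since 59.1% of all genes tested passed (29.1% higher and 30% lower), so a count of 6 of 10 is near it. With all 48 livers, 4 of the 10 passed, all lower, against 48% of genes. Scaling by library size alone turned the balance to 5 higher (Stat5a, Stat5b, Socs2, Igfbp1 and Igfbp2) and 2 lower (Ghr and Igfals), with the median of all genes itself shifted by 0.418 on the log2 scale. The DN:HOM and DN:WT ranges did not overlap for Ghr and Igfals, 2 of 10 genes, against 33.5% of all genes tested. The sizes of the changes, not their number, are therefore given below by role. The 10 genes and the lists used below were chosen with earlier results of these data known. Counts set against the share of all genes, and unadjusted p-values of single genes, are therefore descriptions.

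Ghr encodes the growth hormone receptor and lies on chromosome 15 (GRCm39, chr15:3347235-3613024, minus strand). In DN:WT livers its level ran from 513 over a median of 600.0 to 703 CPM, and in DN:HOM livers from 210 over 247 to 341 CPM, so every DN:HOM liver lay below every DN:WT liver. The means were 602 ± 61.2 and 257 ± 46.3 CPM (SD, n = 7 each), a log2 fold change of −1.22 (SE 0.109) or 0.430-fold, with an adjusted p of 7.8e-13. A two-sided exact permutation test gave p = 0.00058, the smallest that 7 against 7 livers allow. With all 48 livers the log2 fold change was −0.88 (adjusted p = 6.5e-05; exact permutation p = 0.0056), and the groups then overlapped. DN:HET livers (596 ± 87.6 CPM, SD, n = 8) were at the DN:WT level. In the knockout study the order was KO:WT (693 ± 51.9 CPM), KO:HET (679 ± 88.4) and KO:HOM (645 ± 106, SD, n = 8 each), and neighbours in it differed by less than their spread. The KO:HOM effect on Ghr was −0.11 with a 95% interval from −0.31 to 0.09 (adjusted p = 0.48). The DN effect exceeded the KO effect by −1.11 on the log2 scale (SE 0.147, adjusted p = 1.1e-07), or by −0.77 with all 48 livers (adjusted p = 0.025).

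Igf1, the growth factor gene on chromosome 10 (chr10:87693642-87772904, plus strand), moved less. Its level ran from 344 over 448 to 516 CPM in DN:WT and from 266 over 286 to 377 CPM in DN:HOM livers, with 5 of 7 DN:HOM livers below all DN:WT livers. The log2 fold change was −0.46 (SE 0.109, adjusted p = 3.4e-04), and −0.32 with all 48 livers (adjusted p = 0.019). Scaling by library size alone gave −0.03 (adjusted p = 0.80), which is lower relative to the median of all genes under that scaling (0.418). In KO:HOM livers Igf1 averaged 518 ± 51.0 CPM and in KO:WT 618 ± 91.5 CPM (SD, n = 8 each). That difference of −0.26 did not pass the test (adjusted p = 0.063, 95% interval −0.46 to −0.06), while the exact permutation test of this one gene, unadjusted, gave p = 0.018. The homozygous effects of the lines on Igf1 did not differ past the threshold (−0.20, 95% interval −0.50 to 0.10, adjusted p = 0.32, or −0.07 with all 48 livers, adjusted p = 0.83).

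Igfals encodes the acid-labile subunit, which locks IGF-1 into its long-lived circulating complex, and lies at chr17:25084971-25100984 on the plus strand. It was the only gene of the 9 matched in a RefSeq promoter table (GRCm38.p6) whose windows of 250 bases before a start held the letters TTCNNNGAA, the inverted repeat that STAT5 binds, which reads the same on both strands. The 9 genes had 15 windows, and among all 32851 windows of that length 7.02% held these letters. Igfals has 3 annotated starts, of which 2 windows held these letters, TTCTCAGAA beginning 236 bases before one start and TTCCTAGAA beginning 58 bases before another. Whether 2 of 15 windows exceed the share of all windows was not tested. The first window is shown because it places a match beside a gene that changed, with the match in capitals, on the plus strand of GRCm38.p6 at chr17:24877594-24877843:
Igfals: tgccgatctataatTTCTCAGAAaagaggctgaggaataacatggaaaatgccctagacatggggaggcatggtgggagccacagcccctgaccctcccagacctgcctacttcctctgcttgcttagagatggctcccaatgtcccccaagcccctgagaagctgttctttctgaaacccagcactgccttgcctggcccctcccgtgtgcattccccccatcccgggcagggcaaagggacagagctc
A match of letters is a description and not a measured site, and windows without it, those of Ghr, Igf1 and Cish among them, lack only these letters in this stretch. No window was matched for Socs2.

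Igfals fell with Ghr in DN:HOM livers. Its level ran from 48.1 over 69.7 to 85.3 CPM in DN:WT and from 25.5 over 31.7 to 45.7 CPM in DN:HOM livers, again without overlap. The log2 fold change was −0.92 (SE 0.205, 0.527-fold, adjusted p = 1.5e-04), and the exact permutation p was the smallest possible, 0.00058. All 48 livers gave −0.64 (adjusted p = 0.014; exact permutation p = 0.015), with overlap. In the knockout the effect was −0.13 (95% interval −0.51 to 0.25, adjusted p = 0.69). The effects differed by −0.79 (adjusted p = 0.023), which did not hold with all 48 livers (−0.52, adjusted p = 0.27) or with library size alone (−0.48, adjusted p = 0.15).

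Stat5a and Stat5b encode the near-identical transcription factors that carry the signal, and lie 8587 bases apart on chromosome 11 in opposite directions (chr11:100750177-100776065, plus, and chr11:100671556-100741589, minus); reads that fit both copies equally well would not be counted to either gene. In DN:HOM livers Stat5a averaged 22.5 ± 2.85 CPM against 18.8 ± 3.97 CPM in DN:WT (SD, n = 7 each), ranging from 19 over 21.7 to 27.3 and from 11.9 over 20.5 to 23.2 CPM. Its log2 fold change of 0.27 (SE 0.117) had an adjusted p of 0.044, which became 0.16 with all 48 livers and 0.070 without a low-count filter, and the unadjusted exact permutation test of this gene gave p = 0.069 (0.15 with all 48). Stat5b ran from 42.7 over 71.3 to 79.9 CPM in DN:WT and from 45.7 over 55.6 to 71.1 CPM in DN:HOM livers, which overlapped. Its difference of −0.19 did not pass (adjusted p = 0.095, or −0.15 and 0.15 with all 48 livers), and it turned to 0.24 with library size alone (adjusted p = 0.027). In KO:HOM livers Stat5b was 57.5 ± 4.59 and in KO:WT 51.4 ± 3.52 CPM (SD, n = 8 each), and 7 of 8 KO:HOM livers lay above all KO:WT livers. The edgeR test gave an adjusted p of 0.24 for that 0.16 (0.049 with the KO livers fitted alone and 0.029 with library size alone), and the unadjusted exact permutation test of this one gene p = 0.014. The lines' effects on Stat5b differed by −0.34 (adjusted p = 0.040), which passed in 3 of 7 alternative fits (adjusted p from 0.029 to 0.86, and 0.094 with all 48 livers).

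Socs2 and Cish encode inhibitors that STAT5 induces, and both varied widely between livers of one group. Cish (chr9:107173225-107179983, plus strand) ran from 1.85 over 25.0 to 42.5 CPM in DN:WT and from 1.97 over 8.39 to 34.1 CPM in DN:HOM livers. In DN:HET livers the highest was 40.8 times the lowest, and the coefficient of variation was from 55.9 to 100% over the 6 groups. Its DN:HOM change of −0.52 had a 95% interval from −1.87 to 0.84 (adjusted p = 0.53), so that a change of that size was not detectable here, and all 48 livers gave −0.06 (adjusted p = 0.95). The KO:HOM change was 0.12 (95% interval −1.15 to 1.39, adjusted p = 0.92).

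Socs2 (chr10:95219523-95253929, minus strand) ran from 5.53 over 11.7 to 14.5 CPM in DN:WT and from 13.4 over 16.3 to 23.6 CPM in DN:HOM livers, and 6 of 7 DN:HOM livers lay above all DN:WT livers. Its coefficient of variation was 20.7% in DN:HOM but 93.5% in KO:WT livers. The fitted change of 0.87 (SE 0.499) did not pass (adjusted p = 0.13, or 0.75 and 0.18 with all 48 livers), while the DN livers fitted alone gave 0.91 (adjusted p = 0.045) and library size alone an adjusted p of 0.022. The unadjusted exact permutation test of this gene gave p = 0.0012. In the knockout study Socs2 ran from 5.53 over 11.5 to 63.5 CPM in KO:WT and from 3.39 over 10.4 to 21.1 CPM in KO:HOM livers, a change of −1.04 that did not pass (adjusted p = 0.12). The effects differed by 1.91 on the log2 scale (SE 0.686, adjusted p = 0.027, or 0.069 with all 48 livers).

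Igfbp1 and Igfbp3 lie 3539 bases apart on chromosome 11, on opposite strands (chr11:7147651-7152546, plus, and chr11:7156086-7164179, minus). Igfbp1 is known to rise in fasting and to be repressed by insulin through an element in its promoter. Its window was the only one of the 15 windows of the 9 genes to hold CAAAACAA, the core of that element, on either strand. The match begins 108 bases before the start, and 2.21% of all windows held these letters. The 250 bases are shown with the match in capitals because Igfbp1 moved in opposite directions in the lines (plus strand, GRCm38.p6, chr11:7197537-7197786):
Igfbp1: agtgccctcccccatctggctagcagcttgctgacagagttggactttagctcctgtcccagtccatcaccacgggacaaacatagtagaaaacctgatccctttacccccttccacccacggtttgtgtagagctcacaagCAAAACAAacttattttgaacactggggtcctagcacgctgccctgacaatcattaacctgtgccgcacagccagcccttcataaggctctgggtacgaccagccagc
In DN:WT livers Igfbp1 ran from 8.40 over 18.9 to 49.5 CPM and in DN:HOM livers from 12.1 over 46 to 74.2 CPM, with overlap. The log2 fold change was 1.19 (SE 0.472, adjusted p = 0.028). It did not pass with all 48 livers (0.76, adjusted p = 0.16), and the liver labelled DN:WT animal 10 had 63.0 CPM.

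In the knockout study Igfbp1 ran from 21.1 over 50.1 to 107 CPM in KO:WT and from 7.01 over 24 to 52.2 CPM in KO:HOM livers. The log2 fold change was −1.25 (SE 0.441, adjusted p = 0.038), with an exact permutation p of 0.020, unadjusted. The call was lost in 5 of 7 alternative fits: all 48 livers (adjusted p = 0.062), no low-count filter (0.0501), the KO livers alone (0.062), library size alone (0.073) and no livers under 10000000 reads (0.072), while the size held between −1.26 and −1.11. The DN effect minus the KO effect was 2.44 (SE 0.646, adjusted p = 0.0027), and 2.01 with all 48 livers (adjusted p = 0.037). The controls differed as well: Igfbp1 was 0.346-fold as high in DN:WT as in KO:WT livers (adjusted p = 0.024, or 0.082 with all 48).

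Igfbp2, per kilobase the most abundant of the 3 binding protein genes in DN:WT livers, lies at chr1:72863606-72891634 on the plus strand. Its level ran from 253 over 307 to 372 CPM in DN:WT and from 244 over 327 to 507 CPM in DN:HOM livers, a difference of 0.15 (95% interval −0.29 to 0.59, adjusted p = 0.57, or 0.18 and 0.47 with all 48 livers). Library size alone gave 0.57 (adjusted p = 0.015). In KO:WT livers it ran from 186 over 444 to 585 CPM and in KO:HOM livers from 130.0 over 253 to 402 CPM. The log2 fold change of −0.79 (SE 0.204, 0.580-fold) had an adjusted p of 0.0043, and passed in all 7 alternative fits (adjusted p from 0.0014 to 0.012). The effects of the lines on Igfbp2 differed by 0.94 (adjusted p = 0.012, or 0.027 with all 48 livers).

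Igfbp3, which in mouse liver is made mainly by endothelial and other non-parenchymal cells, ran from 12.8 over 19.1 to 23.1 CPM in DN:WT and from 8.12 over 11.1 to 17.2 CPM in DN:HOM livers. The log2 fold change was −0.65 (SE 0.230, adjusted p = 0.014), or −0.53 with all 48 livers (adjusted p = 0.043); library size alone gave −0.21 (adjusted p = 0.40). Over the same groups the summed level of 10 endothelial markers had medians of 204 and 138 CPM, ranges of 178 to 241 and of 116 to 210 CPM, and 8 of its 10 genes were called lower; the part of this in Igfbp3 was not tested. In KO:HOM livers Igfbp3 averaged 28.2 ± 9.90 CPM against 21.6 ± 7.65 CPM in KO:WT (SD, n = 8 each), a change of 0.38 that did not pass (adjusted p = 0.22). The effects differed by −1.03 (SE 0.312, adjusted p = 0.0088, or 0.048 with all 48 livers and 0.053 with library size alone).

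**Figure D2:**
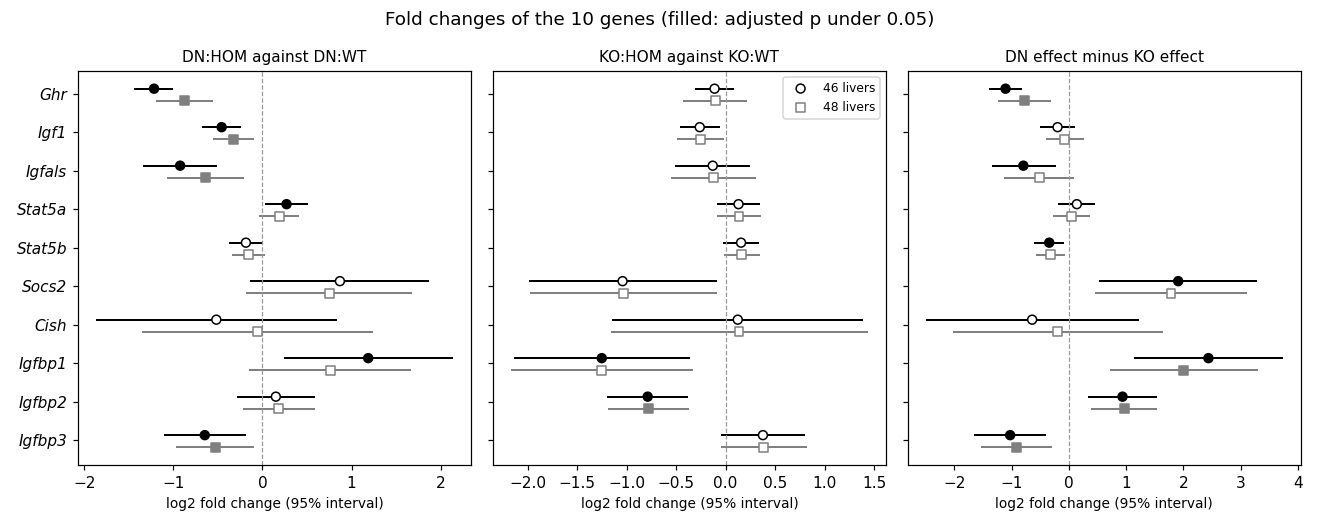
Log2 fold change (horizontal axis, with its 95% interval) of each gene in homozygous against wild-type livers of the DN study, of the KO study, and the difference of these effects. Circles are the fit to 46 livers and squares that to 48, and filled symbols passed an adjusted p of 0.05; Ghr in the left panel is at −1.22 and −0.88.

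In the knockout study 2 of the 10 genes passed, Igfbp1 and Igfbp2, both lower, against 19.4% of all genes tested (11.5% higher and 7.87% lower), and with all 48 livers 1 passed, Igfbp2, against 12.9%. With the KO livers alone and with library size alone, Igfbp2 was called lower and Stat5b higher. No gene of the 10 had KO:HOM and KO:WT ranges that did not overlap, against 2.55% of all genes. The difference of the homozygous effects passed for 7 of the 10 (Ghr, Igfals, Stat5b and Igfbp3 lower, and Socs2, Igfbp1 and Igfbp2 higher in the DN line), against 34.7% of all genes. Library size alone turned that balance of 3 higher and 4 lower to 4 higher and 1 lower. With all 48 livers it passed for 4, Ghr, Igfbp1, Igfbp2 and Igfbp3, against 10.5%.

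In heterozygous livers none of the 10 genes passed by edgeR or by DESeq2 in either study. Of all genes tested, 2.30% passed in DN:HET and 0.0191% in KO:HET livers. At an unadjusted p under 0.05 the count was 0 in DN:HET and 1 in KO:HET, which was Stat5a, at 14.3 ± 2.10 against 17.2 ± 2.76 CPM in KO:WT (SD, n = 8 each; log2 fold change −0.27, adjusted p = 0.71). For Ghr the 95% intervals ran from −0.23 to 0.19 in DN:HET and from −0.24 to 0.17 in KO:HET livers, whereas for Cish they ran from −1.93 to 0.72 and from −0.60 to 1.91.

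DN:WT and KO:WT livers, the controls of the studies, also differed for 4 of the 10 genes, or 3 with all 48 livers, against 12% of all genes. Igf1 was 0.695-fold (adjusted p = 5.3e-04), Igfals 0.668-fold (adjusted p = 0.044) and Igfbp1 0.346-fold as high in DN:WT as in KO:WT livers, and Stat5b was 1.25-fold as high (adjusted p = 0.016). Of the hepatocyte markers 5 of 10 were lower and 0 higher in DN:WT livers (median −0.34), and of the regulators named below 4 of 8 were lower (median −0.48); their part was not tested. Line and site cannot be told apart, and cohorts within a study, which the labels used here do not give, were not modelled. Effects of genotype were therefore compared between the lines only as changes from each line's own wild-type livers. The correlations given below pool livers of both lines.

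Per kilobase of the canonical transcript, Igfbp2 was the most abundant of the 10 in DN:WT livers (234 ± 26.8 CPM per kb), followed by Ghr (134 ± 13.6), Igf1 (61.1 ± 9.66) and Igfals (24.6 ± 5.84, SD, n = 7 each). Stat5b stood at 12.7 ± 2.65 and Stat5a at 4.75 ± 1.0 CPM per kb. In DN:HOM livers Ghr was at 57.1 ± 10.3 and Igf1 at 44.1 ± 6.30 CPM per kb, while Igfbp2 was at 257 ± 70.1 (SD, n = 7 each). These levels rest on 1 transcript length per gene, and livers may use others.

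Beyond the 10 genes, the receptor's signalling partners moved in both directions. Of 12 genes listed for growth hormone receptor signalling, 5 were higher and 4 lower in DN:HOM livers (59.1% of all genes were called), with a median log2 fold change of 0.09 (−0.01 over all genes); with all 48 livers, 3 were higher and 2 lower. In KO:HOM livers 7 were higher and 1 lower, with a median of 0.39 (−0.02 over all genes), against 11.5% and 7.87% of all genes; the macrophage and T cell sums were higher in the same livers, and their part was not tested. Socs3, an inhibitor of cytokine and growth hormone signalling, rose in both, by 2.15 in DN:HOM (adjusted p = 3.2e-05; 1.68 with all 48 livers) and by 1.18 in KO:HOM livers (adjusted p = 0.031, or 0.062 with all 48). Socs1 rose by 4.42 in KO:HOM livers (adjusted p = 1.8e-06), from 0.225 to 4.97 CPM, while in DN:HOM livers its 1.09 did not pass (adjusted p = 0.10, or 0.12 with all 48). Jak2, the kinase bound to the receptor, rose by 0.33 in DN:HOM (adjusted p = 0.0057, or 0.062 with all 48) and by 0.40 in KO:HOM livers (adjusted p = 0.0029). Prlr, the related prolactin receptor, fell from 35.5 to 8.32 CPM in DN:HOM livers (−2.08, adjusted p = 3.7e-08, or −1.12 and 0.014 with all 48 livers), and its −0.63 in KO:HOM livers did not pass (adjusted p = 0.070). Lepr, the leptin receptor, fell by 2.92 in KO:HOM (adjusted p = 9.6e-07) and by 1.14 in DN:HOM livers (adjusted p = 0.011, or 0.025 with all 48).

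Of the 14 other IGF system genes, 11 passed the filter on low counts, and Igf2, Pappa and Pappa2 did not. In DN:HOM livers 6 of the 11 were higher and 1 lower (median 0.48), or 5 and 1 with all 48 livers, and 7 of 11 is near the 59.1% of all genes. Only Igfbp7 of the 11 was higher in KO:HOM livers (0.44, adjusted p = 0.030, or 0.24 with all 48), and the list's median was −0.03. The IGF-1 receptor gene Igf1r, low in hepatocytes, rose from 2.25 to 5.07 CPM in DN:HOM livers (1.18, adjusted p = 2.1e-06, or 0.76 with all 48 livers). Igfbp7 rose from 67.9 to 224 CPM (1.74, adjusted p = 2.3e-12, or 1.16 with all 48), Htra1, a protease that cuts binding proteins, from 1.71 to 7.91 CPM (2.21, adjusted p = 3.1e-07, or 1.49), and Stc2, an inhibitor of the IGFBP-cutting protease PAPP-A, from 0.257 to 1.44 CPM (2.46, adjusted p = 3.4e-06, or 1.85), all 4 passing in both fits. Igfbp7 and Htra1 are also made by stromal cells, and the stellate cell marker sum rose over the same groups; its part was not tested. Insr, the insulin receptor, fell by 0.44 (adjusted p = 1.9e-06, or by 0.35 with all 48).

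Regulators that pattern the liver's response to growth hormone fell or did not pass. Of 8 tested, 4 fell in DN:HOM livers (median −0.36) and 3 in KO:HOM livers (median −0.34), and 2 in each with all 48 livers. Of all genes, 30% were called lower in DN:HOM and 7.87% in KO:HOM livers. Cebpa fell in both (−0.73, adjusted p = 2.7e-07, or −0.56 with all 48 livers, and −0.33, adjusted p = 0.018, or 0.096), as did Foxo1 (−0.56, adjusted p = 0.0019, or −0.47, and −0.46, adjusted p = 0.017), and Foxa2 passed in DN:HOM (−0.59, adjusted p = 0.015, or 0.17 with all 48 livers). Onecut1 fell from 7.59 to 2.57 CPM in DN:HOM livers (−1.56, adjusted p = 0.0497), a call lost with all 48 livers (−0.48, adjusted p = 0.59). Hnf4a fell in KO:HOM livers (−0.35, adjusted p = 0.014).

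Male-biased genes are those that pulsatile growth hormone keeps high in male liver. Of 14, 8 fell and 2 rose in DN:HOM livers, against 30% and 29.1% of all genes, with a median of −1.41. As the list was chosen with earlier results of these data known, an excess over these shares is a description. With all 48 livers the counts were also 8 and 2, and the median was −1.02. Hsd3b5, a steroid-metabolising enzyme, fell from 126 to 2.18 CPM (−5.84, adjusted p = 1.4e-06, or −3.04 and 0.0095 with all 48 livers), Slco1a1, a bile acid and steroid uptake transporter, from 435 to 37.9 CPM (−3.51, adjusted p = 1.2e-08, or −2.06 and 0.0025), Elovl3, a fatty acid elongase, from 314 to 41.0 CPM (−2.92, adjusted p = 7.5e-08, or −1.85 and 0.0019), and Ugt2b1, a glucuronosyltransferase, from 760 to 153 CPM (−2.30, adjusted p = 6.7e-14, or −1.53 and 1.2e-04). Mup20 and Gstp1, also of this list, rose by 1.19 (adjusted p = 2.9e-04) and 1.04 (adjusted p = 3.0e-04), or by 0.78 and 0.74 with all 48 livers. The summed level of the 14 genes was higher, with medians of 11916 CPM in DN:WT (8391 to 14167) and 17584 CPM in DN:HOM livers (12717 to 22387). A sum is weighted to the most abundant genes. From KO:WT to KO:HOM livers its median went from 10413 to 8249 CPM. The KO:HOM livers had 5 lower and 0 higher (median −0.58, against 7.87% of all genes lower), Elovl3, Slco1a1, Ugt2b1, Cspg5 and Nudt7, of which Ugt2b1 and Cspg5 passed with all 48 livers. Mup20 and Gstp1, which rose, and Cyp4a12a, Cyp4a12b and Cyp2d9, which fell in DN:HOM livers, belong to families of near-identical genes, and their counts are uncertain. The hepatocyte marker sum was lower in the same DN:HOM livers, and its part was not tested.

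The female-biased list of 18 genes had 8 that passed the low-count filter. Of the 8, 4 rose and 3 fell in DN:HOM (3 and 2 with all 48), against 29.1% and 30% of all genes. In KO:HOM livers 2 rose and 1 fell (1 and 1 with all 48), against 11.5% and 7.87%. Those that rose in DN:HOM included Prom1 (3.95, adjusted p = 8.4e-12, or 2.16 with all 48) and Atp6v0d2 (3.91, adjusted p = 3.0e-14, or 1.94), which duct cells and macrophages also express, and Cyp17a1 fell by 3.28 (adjusted p = 1.6e-06, or by 1.85). The plot of pathway genes shows each of them.

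**Figure D3:**
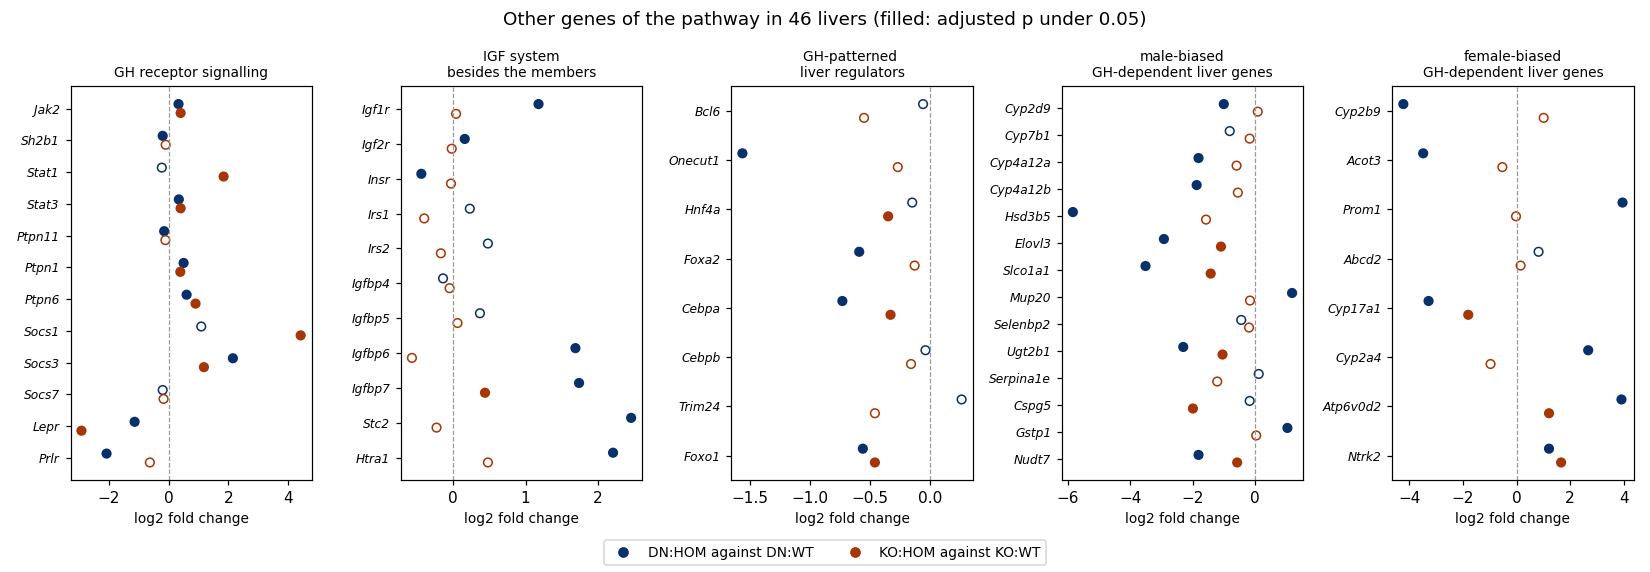
Log2 fold change (horizontal axis) of the tested genes of 5 pathway lists, in DN:HOM against DN:WT (blue) and KO:HOM against KO:WT livers (orange), over 46 livers. Filled points passed an adjusted p of 0.05; Hsd3b5 is at −5.84 in the DN study and Socs1 at 4.42 in the KO study.

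Over the 46 livers, levels of the 10 genes moved together to different degrees, described here with no test, as livers share genotype, site and depth. Igf1 and Igfals were the closest pair (Pearson r = 0.89 of log2 CPM, and 0.72 once the group means were removed). Ghr and Igf1 had r = 0.76, and 0.13 within groups, and Ghr and Igfals 0.81 and 0.47. Socs2 and Cish had r = 0.44, and 0.51 within groups.

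**Figure D4:**
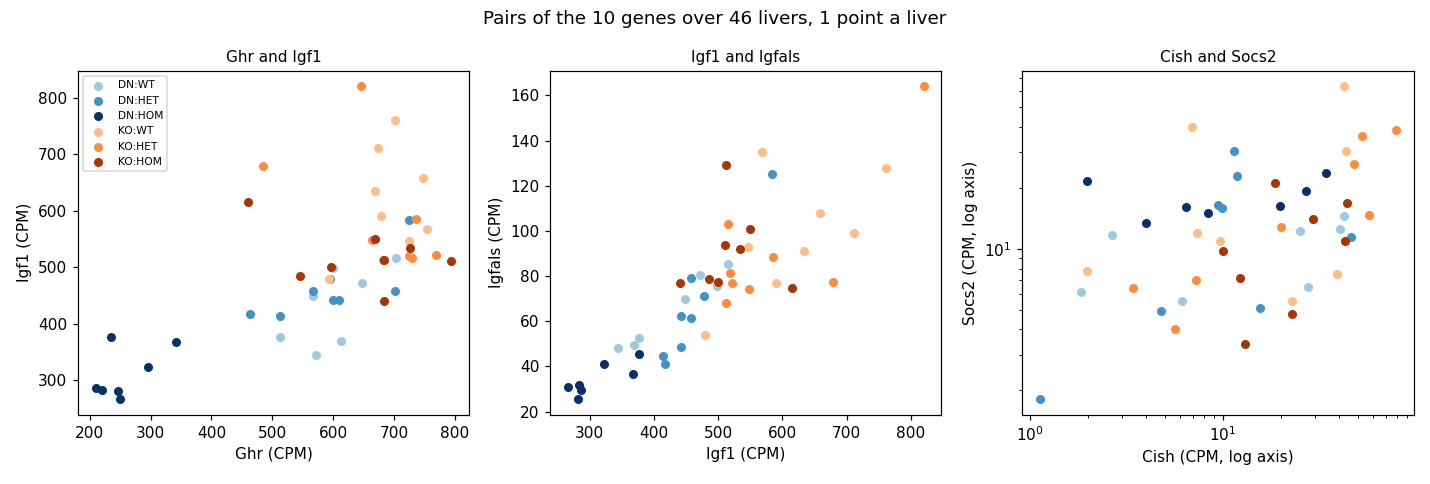
Levels of pairs of genes in CPM, 1 point a liver over 46 livers coloured by group, with log axes for Cish and Socs2. DN:HOM livers sit at the low end of Ghr, Igf1 and Igfals, while for Cish, which spans 1.13 to 78.6 CPM, the groups are mixed.

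The other 13235 genes with a mean of at least 1 CPM were ranked by r over the 46 livers, so differences between groups and sites enter. Values in brackets are r over all 46 livers and then r within groups. Closest to Ghr were Pecr (0.98, 0.84), Gm20319 (0.97, 0.83) and Cat (0.97, 0.85). Pecr encodes a peroxisomal enoyl reductase and Cat catalase. The genes closest to Igf1 were Urad (0.92, 0.73), Itch (0.91, 0.66) and Fgf1 (0.90, 0.56). Those closest to Igfals were Proz (0.92, 0.77), Zcchc24 (0.90, 0.68) and Lcat (0.90, 0.69). For Socs2 the closest was E2f8 (0.73, 0.81). For Cish they were Phlda1 and Gm28592 (0.80, 0.79 each) and Foxa2 (0.78, 0.84). For Igfbp1 they were Irf2bp2 (0.80, 0.79), Ip6k2 (0.76, 0.78) and Tmc7 (0.73, 0.59). Igfbp2 was most like Stbd1 (0.70, 0.55) and Ahsg (0.70, 0.65). Igfbp3 was most like Adamts13 (0.76, 0.58), Snap29 (0.76, 0.69) and Ecm1 (0.76, 0.62). Stat5a was most like Net1 (0.77, 0.66) and Stat5b most like Stard13 (0.79, 0.72).

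Marker lists of the liver's cell types gave the following counts, beside 29.1% of all genes called higher and 30% lower in DN:HOM and 11.5% and 7.87% in KO:HOM livers. In DN:HOM livers 9 of 10 hepatocyte markers fell (median −1.02), 9 of 10 macrophage (Marco, of resident macrophages, fell), 9 of 10 stellate cell and 7 of 7 cholangiocyte markers rose, as did 5 of 5 tested neutrophil and 3 of 6 T cell markers, while 2 of 5 B cell markers fell. In KO:HOM livers 5 of 10 hepatocyte markers fell (median −0.32), 8 of 10 macrophage, 6 of 10 stellate cell, 2 of 7 cholangiocyte, 6 of 6 T cell and 3 of 5 neutrophil markers rose, 1 endothelial marker rose and 1 fell, and 0 of 5 B cell markers passed. With all 48 livers, 8 hepatocyte markers fell and 8 macrophage, 8 stellate cell and 7 cholangiocyte markers rose in DN:HOM livers, as did 3 neutrophil and 1 T cell markers, while 6 endothelial and 0 B cell markers fell. The KO:HOM counts were then 2 hepatocyte markers lower and 6 macrophage, 3 stellate cell, 0 cholangiocyte, 6 T cell and 1 neutrophil markers higher.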

How the data were processed

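Liver mRNA was sequenced from 48 mice in stranded libraries (RNA extracted with an RNeasy kit). The authors aligned the reads with STAR 2.5.0a to GRCm39 and deposited a table of raw gene counts for every liver, on both strands together and on each strand. The counts of the gene strand were used, which were 6.97 to 8.62 times those of the other; from 24.0 to 35.0% of reads named no gene and were left out of library sizes. Symbols, positions and transcript lengths came from GENCODE vM39 (GRCm39), which holds 98.8% of the identifiers, and promoters from RefSeq windows (GRCm38.p6).

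Genotypes came from the labels. edgeR 4.0.16 in R 4.3.3 was run with filterByExpr, TMM scaling, 6 group means and quasi-likelihood tests on 46 livers; DN:WT animal 10 and DN:HOM animal 12 were left out because the study's source data do not hold them (in expression each resembled the other label), and the fit to 48 livers was given as an alternative. The Benjamini-Hochberg adjustment ran over all genes tested. Exact permutation tests of mean log2 CPM (pseudocount 0.5) were two-sided. Alternatives were DESeq2 1.42.0, library size alone, no low-count filter, both strands together, all 48 livers, each study alone, and no livers under 10000000 reads. Counts of 15711 genes were simulated with the same mean in all groups, and 50 genes were changed at each fold in each line. Of genes raised 2-fold, 86.0% were recovered in DN:HOM and 62.0% in KO:HOM livers, and at 0.5-fold 68.0% and 56.0%. At 1.33-fold 24.0% and 36.0% were recovered, and at 0.75-fold 26.0% and 34.0%. In the livers themselves 59.1% and 19.4% of genes passed, so the adjustment was stricter in the simulation. These rates are therefore not those of the tests above.

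The members and gene lists were chosen with earlier results of these data known. The text names the members, the genes of the lists (growth hormone receptor signalling, IGF system, liver regulators, male- and female-biased genes, markers of 8 cell types), Nr1h3, and the 3 genes most correlated with each member. Each liver is from a separate mouse.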

Additional observations from a re-analysis of the deposited data

Results flagged for a closer look

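Within a group, 10 of 60 member and group pairs held a liver far from the rest, measured as the gap to its nearest neighbour over the group's range. The cut-off gives about 1 in 20 by chance for normal, independent values. Raw CPM need not be normal and several genes share a liver, so the 10 of 60 cannot be set against that rate. In KO:HET animal 9 Ghr was 485 CPM, with the nearest other liver at 645. In DN:HET animal 14 Igf1 was 584 CPM (nearest 478) and Igfals 125 CPM (nearest 79.0), and in KO:HET animal 15 Igfals was 164 CPM (nearest 103). Stat5a was 24.1 CPM in DN:HET animal 20 (nearest 19.3). In KO:HOM animal 11 Stat5b was 47.5 CPM (nearest 56.2) and Igfbp1 52.2 CPM (nearest 27.2), and the same liver, singled out after its values were seen, had the lowest Ghr and Igfals and the highest Igf1, Socs2 and Igfbp3 of its group. Cish was 46.1 CPM in DN:HET animal 1 (nearest 15.6). Igfbp1 was 49.5 CPM in DN:WT animal 21 (nearest 22.5) and 36.2 CPM in DN:HET animal 22 (nearest 19.7).

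The homozygous effect differed between the lines, by the test of the difference itself in edgeR, for 7 genes. In log2 units of the DN effect minus the KO effect these were Ghr at −1.11, Igfals at −0.79, Stat5b at −0.34, Socs2 at 1.91, Igfbp1 at 2.44, Igfbp2 at 0.94 and Igfbp3 at −1.03, of which 4 (Ghr, Igfbp1, Igfbp2 and Igfbp3) passed with all 48 livers.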

How the results depend on the processing

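No paired analysis was possible because animal numbers name single mice, groups of a study share none, and the same number in both studies names different mice. Of 420 gene results under 7 alternatives, 381 kept their direction and side of the threshold, 22 lost and 6 gained a call, and 11 reversed. In the heterozygous comparisons no gene was called in any fit. The 381 therefore include many results that were never called, and are no measure of how firm the calls were. The count of members called in KO:HOM went from 2 to 1 with all 48 livers, with no low-count filter and without livers under 10000000 reads, and stayed at 2 with each study alone and with library size alone, where Igfbp1 lost and Stat5b gained a call. The count for DN:HOM, 2 higher and 4 lower, became 5 higher and 2 lower with library size alone. That of the difference between lines went from 7 to 4 with all 48 livers, and from 3 higher and 4 lower to 4 higher and 1 lower with library size alone. Library size alone, which shifts the median of all genes by 0.418 in DN:HOM and 0.310 in the difference, turned Stat5b in DN:HOM to 0.24, Igf1 in the difference to 0.11, Ghr and Stat5b in DN:HET both to 0.04, and Cish between wild-type groups to 0.00. With all 48 livers Ghr, Stat5a and Stat5b in DN:HET turned to 0.09, −0.01 and 0.01. DN livers alone gave 0.00 for Stat5b in DN:HET, and without livers under 10000000 reads Igfbp1 in KO:HET was −0.08 and Cish in KO:HOM −0.04. Of these, Stat5b in DN:HOM with library size alone passed the test; the cause was not tested. At this depth Cish and Socs2 rested on as few as 15 and 24 reads in a liver. The Ghr decrease in DN:HOM livers passed under all 7 alternatives (−1.22 to −0.79).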
